A study of Arabidopsis thaliana with 6 samples.

Results

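In Arabidopsis line OE9-1, 1220 of 3733 chromatin immunoprecipitation (ChIP) peaks had their midpoint outside every annotated gene but 1 to 1000 bp from the nearer end of a protein-coding gene. That is 32.7% of the OE9-1 list and 1220 of the 12491 peaks of the whole series. These flank peaks were chosen by position alone, from the deposited chromosome and region of each peak and the gene spans of the TAIR10.1 gene table. The same rule picked 279 of 5332 peaks (5.23%) in line OE3-1 and 226 of 3426 (6.60%) in line OE17-4. The share averaged 14.8% ± 15.5 (SD, n = 3) over the lines, so the spread between lines was as large as the mean, and it was 5.91% without OE9-1. Because position chose the peaks, their positions are described here and not tested.

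The samples are Arabidopsis thaliana seedlings of ecotype Col-0 that overexpress AtDEK3 carrying a cyan fluorescent protein (CFP) tag, grown for 14 days with 16 h of light and 8 h of darkness per day. Antibody against green fluorescent protein pulled down the tagged protein from nuclei, and the DNA was read as 36 bp single-end reads. Lines OE3-1, OE9-1 and OE17-4 are independent overexpressors with 1 ChIP library each, numbered replicates 1, 2 and 3, and 3 input libraries were not analysed here. All 3 lines share the ecotype, the overexpressed gene, the tag, the age and the growth conditions. No plant without the transgene is among the samples given here, and the promoter that drives the transgene is not given in the sources used here. Whole seedlings were used, so all their cell types were pooled.

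DEK3 belongs to the DEK-domain family of chromatin proteins, which bind histones and DNA and influence how tightly chromatin is packed. In Arabidopsis, DEK3 is known to contact histones and topoisomerase 1 and to act on nucleosome occupancy and on tolerance to salt. The sequence beside genes holds promoters on the side of the start and terminators on the side of the end. The gene table used here carries no strand, so the sides were told apart as lower and higher coordinate and not as promoter and terminator.

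The OE9-1 list held 814853 reads inside peaks, the OE3-1 list 1235876 and the OE17-4 list 549029. Library depth is unknown from peak lists, so read numbers were not compared between lines as binding. No flank peak of any line was among the few rows whose region is written with 3 dots. Intervals given below are exact 95% intervals over peaks or genes. They cover counting error only, since peaks of 1 library are not replicates.

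Flank sequence, meaning bases outside every gene and within 1 kb of a protein-coding gene, came to 22.7 Mb, or 19.0% of the sequence up to 1 kb past the last gene of each chromosome. OE9-1 put 53.8 midpoints on each Mb of it (interval 50.8 to 56.9). Protein-coding genes held 21.6 OE9-1 midpoints per Mb (20.5 to 22.8). The other lines had the opposite order. OE3-1 had 12.3 per Mb in flanks and 74.6 per Mb in protein-coding genes, and OE17-4 had 9.96 and 39.5. Genes of other types, which include pseudogenes and non-coding RNAs, held 11.3 OE9-1 midpoints per Mb. Intergenic sequence beyond 1 kb held 49.0 per Mb (46.01 to 52.2), and its difference from the flank was not tested.

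The OE9-1 density did not end at the 1 kb limit. It was 41.9 per Mb within 250 bp of a gene end (interval 37.8 to 46.3), 57.3 from 251 to 500 bp, 65.5 from 501 to 750 bp and 64.1 from 751 to 1000 bp. Farther out it was 59.1 per Mb from 1001 to 1500 bp, 62.1 from 1501 to 2000 bp and 59.8 from 2001 to 3000 bp (51.6 to 68.9). Beyond the first 250 bp all of these intervals overlap, so up to 3000 bp the density showed a dip close to genes and then no order among the distance classes. All intergenic sequence beyond 1 kb held 49.0 OE9-1 midpoints per Mb, less than each class from 1001 to 3000 bp. Sequence beyond 3000 bp thus held fewer per Mb than these classes. OE3-1 ran from 14.5 per Mb in the first 250 bp to 5.92 at 2001 to 3000 bp. OE17-4 stayed between 7.80 and 13.9 per Mb over the same classes.

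**Figure D1:**
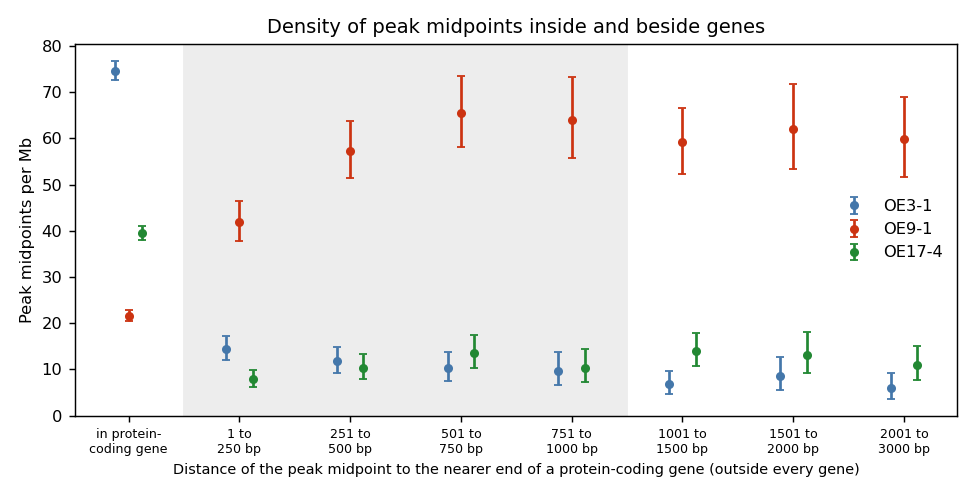
Peak midpoints per Mb of sequence (vertical axis) inside protein-coding genes and in classes of distance to the nearer gene end (horizontal axis), for the 3 lines; points are densities and bars exact 95% Poisson intervals, and grey marks the 1 kb flank. OE9-1 lies at 21.6 per Mb inside genes and between 41.9 and 65.5 per Mb in the flank, while OE3-1 and OE17-4 are highest inside genes.

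Among the 1220 OE9-1 flank peaks, the median distance from midpoint to gene end was 404.5 bp (quartiles 193 and 661). In OE3-1 the median was 285 bp and in OE17-4 402 bp. Within 500 bp lay 59.3% of the OE9-1 flank peaks (56.5 to 62.1%), although 66.3% of all flank bases lie that close. OE3-1 had 72.4% there (66.8 to 77.6%) and OE17-4 58.8% (52.1 to 65.3%). The nearer gene stood on the side of lower coordinate for 611 OE9-1 flank peaks, or 50.1%. For 1144 of them (93.8%) the whole peak cleared every gene, and the remaining 76 reached into a gene at an edge.

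At the outer limit, the last 5 peaks inside lay 996 to 999 bp from a gene and the first 5 outside 1004 to 1008 bp. Those inside had 95, 224, 126, 141 and 225 reads, the last of them beside IDD11, a zinc finger gene. Those outside had 141, 221, 206, 155 and 168 reads, and both sets span similar reads. At the inner limit, 8 midpoints lay within 5 bp of a gene end. Among them, a midpoint 4 bp from AT5G28491 had an FDR of 0.07% and a midpoint 5 bp from GRP5, a glycine-rich protein gene, had 4.69%.

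Protein-coding genes leave 23810 gaps between them in the table, with a median length of 877 bp. Of these gaps, 1187 (4.99%) held an OE9-1 flank peak, 1154 of them a single peak and 33 a pair. The gaps that held flank peaks had a median length of 2247.5 bp per peak (quartiles 1368 and 3965 bp), against 1638 bp in OE3-1 and 2028.5 bp in OE17-4. A median over peaks counts long gaps more often than a median over gaps. Gaps under 1 kb held 13.9% of the OE9-1 flank peaks on 20.0% of flank bases, which is 37.2 per Mb. Gaps of 1 to 2 kb, 2 to 5 kb and 5 kb or more had 58.4, 57.9 and 57.2 per Mb. OE3-1 had its highest flank density in the shortest gaps, 17.2 per Mb, and its lowest in the longest, 6.53 per Mb, while OE17-4 varied only from 9.41 to 10.6 per Mb.

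**Figure D2:**
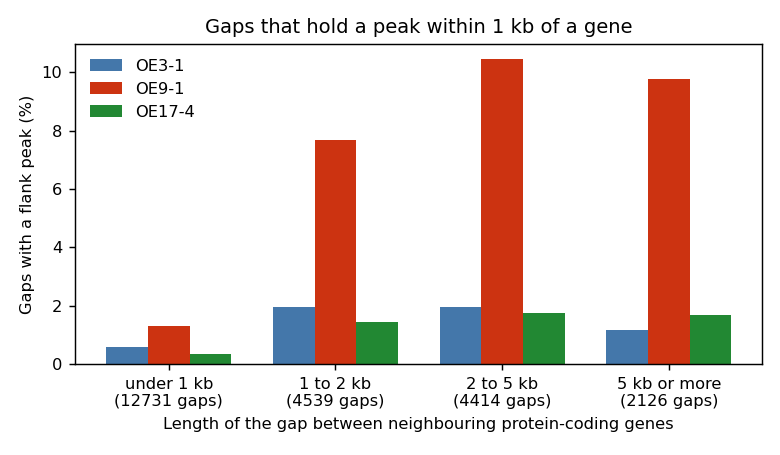
Share of gaps between neighbouring protein-coding genes that held at least 1 flank peak (vertical axis, percent), by gap length (horizontal axis), with 1 bar per line. OE9-1 flank peaks lay in 1.33% of gaps under 1 kb and in 7.69%, 10.4% and 9.78% of the longer classes, and each bar of the other lines is at or below 1.96%.

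Most of the OE9-1 flank peaks had a protein-coding gene within reach on a single side. A gene lay within 1 kb on both sides of 316 of them, or 25.9% (23.5 to 28.5%), where 30.5% of flank bases have that setting. In OE3-1 the share was 41.9% (36.1 to 48.0%) and in OE17-4 31.4% (25.4 to 37.9%). When genes of every type were considered, the nearest was protein-coding for 1144 OE9-1 flank peaks, a long non-coding RNA for 36, a tRNA for 10, a microRNA for 6 and a pseudogene of either kind for 20. For 912 (74.8%) the next gene on each side was protein-coding.

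The gene name that the authors deposited with each peak followed coordinate order and not distance. It named the protein-coding neighbour of lower coordinate for 1060 of the 1220 OE9-1 flank peaks (86.9%) and the neighbour of higher coordinate for 13 (1.07%). The other 147 carried a different name or a name that matched neither neighbour. OE3-1 and OE17-4 had the lower neighbour in 88.9% and 85.0% of their flank peaks. The deposited name was that of the nearer neighbour in 48.8% of the OE9-1 flank peaks. For 458 of them (37.5%) the neighbour of lower coordinate was over 1 kb away. Genes beside peaks were therefore taken from the gene spans and not from the deposited names.

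By the authors' false discovery rate (FDR), the leading OE9-1 flank peak lay on chromosome 2 at 10470314 to 10470376, with an FDR of 5.36e-05% and 3007 reads. It was 851 bp from ATCSLC08, a cellulose synthase-like gene, and 1059 bp from AT2G24625. The next lay 799 bp from PAN, a bZIP transcription factor gene that limits floral organ number, on chromosome 1 at 25773412 to 25773487, with an FDR of 0.00151% and 259 reads. Next came a peak 840 bp from BIP1, which encodes a chaperone of the endoplasmic reticulum, on chromosome 5 at 10544376 to 10544421, with an FDR of 0.00596% and 198 reads. The fourth, on chromosome 2 at 8621769 to 8621821 with 0.01% and 292 reads, lay in a gap of 190 bp between GC1, a golgin gene, 21 bp away, and AT2G19960, 170 bp away. These 4 differ widely in gap length, since the BIP1 gap measures 14163 bp.

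The other 6 of the first 10 had FDRs of 0.03% to 0.05%. On chromosome 1 at 6873612 to 6873719, the peak beside AT1G19840, a member of the auxin-responsive SAUR family, held 341 reads at 307 bp, and the auxin response factor gene MP stood 13004 bp off on the other side of the same gap. On chromosome 4 at 12992674 to 12992746, a peak at 125 bp from GA20OX1, an enzyme gene of gibberellin synthesis, held 230 reads. The remaining 4 lay at 49 bp from AT3G50540 with 328 reads, at 689 bp from AT5G53790 with 303 reads, at 640 bp from AGK2, a guanylate kinase gene, with 98 reads, and at 44 bp from AT1G22120 with 329 reads. Distances in these 10 thus ran from 21 to 851 bp, and reads from 98 to 3007.

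Read numbers put a different set first. After the ATCSLC08 peak, the next 4 all lay on chromosome 2 between 3266303 and 3352780, with 1547, 911, 899 and 810 reads. Their nearer genes were AT2G07673, AT2G07627, AT2G07691 and AT2G07696, at 85, 763, 235 and 542 bp. This stretch of chromosome 2 is known for a large insertion of mitochondrial DNA. Between 3200000 and 3600000 the OE9-1 list had 23 peaks with a median of 911 reads, and 17 of its 26 peaks with 800 or more reads lay there. OE17-4 had 13 peaks in that window with a median of 610 reads, and OE3-1 3 peaks with 179, 910 and 1189 as lowest, median and highest. Reads of the mitochondrial genome itself cannot be told apart from reads of the insertion in these lists. Without all 23 OE9-1 peaks of that window, which was chosen after the values were seen, the median reads of OE9-1 flank peaks were 189 and the share beside genes 32.8%.

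Flank peaks held fewer reads and were longer than peaks in protein-coding genes of the same line. In OE9-1 the median was 189.5 reads in flanks (185 to 195) and 234 in genes (230 to 240). OE3-1 had medians of 186 and 213 reads, and OE17-4 107 and 142. Flank medians were lower in 3 of 3 lines, by a mean difference of -18.8% ± 5.99 (SD, n = 3; exact sign-flip permutation test, 2-sided, p = 0.25, the smallest p that 3 lines allow). Median lengths in flanks and genes were 83 and 70 bp in OE9-1, 71 and 60 bp in OE3-1, and 146 and 134 bp in OE17-4. Lengths were greater in flanks in 3 of 3 lines, by 15.3% ± 5.48 (SD, n = 3; the same exact test, p = 0.25).

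Farther intergenic peaks of OE9-1 had 169 reads and 89 bp as medians, beyond the flank values in both measures. Inside the flank, the median fell from 207.5 reads within 250 bp to 183, 175 and 188 in the next 3 classes of 250 bp. Across the 1220 peaks, Spearman's rho between distance and reads was -0.16, a description of peaks that share 1 library. By gap length the median was 209 reads under 1 kb, 188 at 1 to 2 kb, 191 at 2 to 5 kb and 167 at 5 kb or more, so the middle classes lay between the ends without an order of their own.

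**Figure D3:**
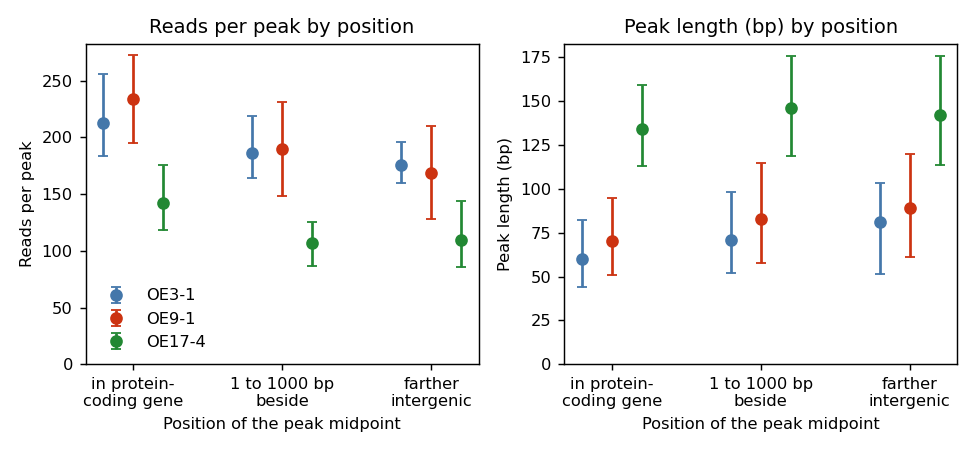
Reads per peak (left, vertical axis) and peak length in bp (right, vertical axis) by position of the midpoint (horizontal axes) for the 3 lines; points are medians over peaks and bars run from the first to the third quartile. In each line the flank median lies below the gene median in reads and above it in length, as for OE9-1 with 189.5 against 234 reads and 83 against 70 bp.

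The authors' FDR differed little between flank peaks and the others. OE9-1 flank peaks had a median of 2.65% (2.52 to 2.73%) and the rest of the list 2.78% (2.69 to 2.87%). An FDR under 1% was given to 198 flank peaks, or 16.2%, and to 16.6% of the rest. Flank peaks ranged from 20 to 299 bp, and 90 of them (7.38%) were shorter than a 36 bp read. Long peaks were not those with most reads. The 90 flank peaks of 150 bp or more had a median of 132.5 reads, against 194 in the 213 peaks under 50 bp. The authors' Wilcoxon filter p-value went with length, with medians of 0.05 under 50 bp and 9.73e-05 at 150 bp or more (Spearman's rho -0.59 over 1220 peaks).

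Forward and reverse reads are counted for each peak and were not used by the position rule that chose the flank peaks. Whether the authors filtered their lists on strand balance is not given in the labels used here. The flank peaks called below had a normalized difference between strands of at most 0.4, so strongly unequal peaks may be absent from the lists. Forward and reverse reads were unequal in 183 of 1220 OE9-1 flank peaks, or 15% (13.0 to 17.1%). This is by an exact binomial test with Benjamini-Hochberg adjustment over the whole list, where the list as a whole had 13.2%. The OE9-1 peaks outside the flank had 12.3%, with 10.4% for peaks in protein-coding genes and 15.1% for farther intergenic peaks. The flank share is thus near that of the list, which includes the flank peaks, and somewhat above that of the rest. This difference was not tested. The test takes reads as independent molecules, which reads of 1 library need not be, so its p-values cover counting error only and may be too small. The call also depends on read numbers, which were lower in flanks than in genes. In OE3-1 96 flank peaks (34.4%) were called, with 31.3% over its list, and in OE17-4 0 of 226, with 0.234% over its list. At an unadjusted p under 0.05 in the same binomial test, OE17-4 had 21 flank peaks (9.29%), with 10.2% over its list. Neither strand was favoured, since forward reads were in excess in 599 OE9-1 flank peaks, or 49.1%. The ATCSLC08 peak had 1025 forward and 1982 reverse reads (exact binomial test, adjusted p = 1.18e-65). The peak with the next lowest p lay between AT1G22230 and PUM8, with 68 forward and 149 reverse reads (exact binomial test, adjusted p = 2.45e-05).

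**Figure D4:**
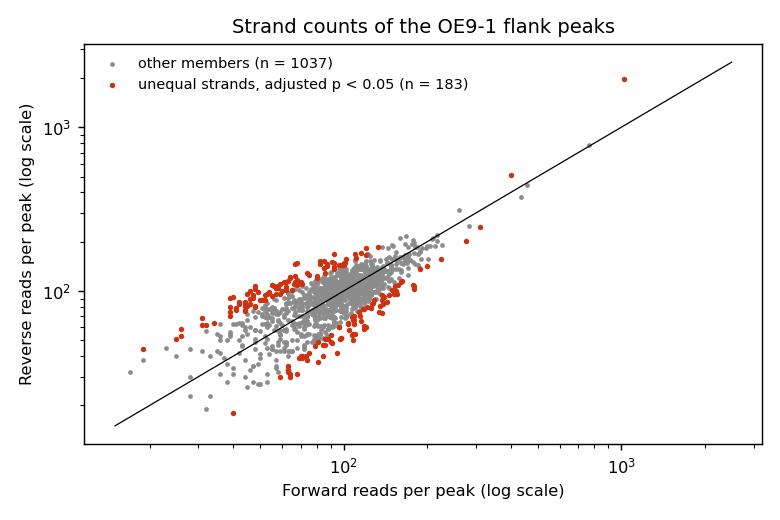
Forward reads (horizontal axis, log scale) and reverse reads (vertical axis, log scale) of the 1220 OE9-1 flank peaks, 1 point per peak, with the line of equality; red points are the 183 peaks with unequal strands (exact binomial test, adjusted p under 0.05). Red points lie on both sides of the line, and the peak at the upper right is that beside ATCSLC08 with 1025 forward and 1982 reverse reads.

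Flank peaks of OE9-1 stood beside 1496 of 27444 protein-coding genes, or 5.45%, where a gene is beside a peak if its nearer end is within 1 kb with no other protein-coding gene between. A single flank peak lay beside 1457 genes, a pair beside 38 and 3 peaks beside AT3G25260, a gene of the nitrate and peptide transporter family. For the last, peaks lay 763 and 3 bp before the span and 70 bp after it, with 175, 213 and 296 reads. Peaks stood on both sides of 32 genes. They include HAT9, a homeodomain-leucine zipper gene, with peaks at 148 and 295 bp and 309 and 134 reads. PAB3, a poly(A)-binding protein gene, had peaks at 12 and 213 bp with 132 and 182 reads. DREB26, a gene of the AP2/ERF class, had peaks at 378 and 46 bp with 155 and 206 reads.

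No gap held more than 2 OE9-1 flank peaks, and in the 33 gaps with a pair their midpoints were 507 to 28360 bp apart, with a median of 2103 bp. The pair with the lowest FDR lay in the 5775 bp gap between GA20OX1 and TRM23, with 230 reads at 125 bp from the first and 388 reads at 80 bp from the second. The gap between AT5G36260 and AT5G36280 held peaks of 199 and 90 reads. Peaks of 194 and 220 reads lay between DRB2, a double-stranded RNA binding protein gene, and AT2G28390. A pair with 260 and 89 reads lay between TAF15 and the sugar transporter gene STP9, both within 1 kb of TAF15. Peaks of 172 and 208 reads lay 28360 bp apart between AT2G14290 and LCR84.

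Genes of several transcription factor families and the cytochrome P450 genes stood beside OE9-1 flank peaks at shares above the 5.45% of all genes. The interval of each transcription factor list includes 5.45%. Families were recognised by fixed patterns of gene symbols and synonyms, so members with no name or another form of name are missed. Among MADS box genes, 10 of 98 (10.2%, interval 5.00 to 18.0%) had a flank peak. Homeobox genes had 9 of 94 (9.57%, 4.47 to 17.4%), and MYB genes 11 of 125 (8.80%, 4.48 to 15.2%). WRKY genes had 6 of 72 (3.12 to 17.3%), and ERF and DREB genes 4 of 48 (2.32 to 20.0%). NAC genes had 8 of 99 (3.55 to 15.3%) and bHLH genes 2 of 17 (1.46 to 36.4%). Auxin response genes had 12 of 151 (7.95%), and cytochrome P450 genes 21 of 234 (8.97%, 5.64 to 13.4%), the only list of the 15 with 10 or more genes whose interval lies above 5.45%. The 21 cytochrome P450 genes share 18 peaks, since 3 peaks lie between neighbours of the family, and the interval treats genes as separate. The interval is also not adjusted for the 15 lists, and the 5.45% takes no account of flank length. Taking in CYP symbols of other forms, a choice made after the values were seen, gave 23 of 241 (9.54%, 6.15 to 14.0%). It added CYP718 with a peak at 930 bp and CYP96A14P with a peak at 68 bp.

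These families also have more flank sequence per gene, and its part in their shares was not tested. A protein-coding gene had on average 1080 bp of flank over both sides, a MYB gene 1633 bp, a homeobox gene 1569 bp, a WRKY gene 1448 bp, a MADS box gene 1423 bp and a cytochrome P450 gene 1274 bp. Per Mb of that sequence, 50.5 of all genes stood beside a flank peak. The figure was 53.9 for MYB, 54.0 for auxin response, 55.7 for NAC, 55.9 for ERF and DREB, 57.6 for WRKY and 61.0 for homeobox genes. It was 70.4 for cytochrome P450, 71.7 for MADS box and 78.3 for the 17 bHLH genes. These values per Mb carry no interval, and their differences from 50.5 were not tested. The 1496 genes beside flank peaks had 1495 bp of flank on average.

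Other lists were at the low end. Ribosomal protein genes had 2 of 64 (3.13%) and heat shock genes 1 of 48 (2.08%). Histone genes had 0 of 21, light harvesting genes 0 of 20 and expansin genes 0 of 31. Ribosomal protein genes had 708 bp of flank each on average and 44.2 genes beside a flank peak per Mb of it. In lists of this size, 5.45% corresponds to few genes. The other lines had 1.43% (OE3-1) and 1.08% (OE17-4) of all genes beside flank peaks, and at most 4 genes in any of these lists.

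**Figure D5:**
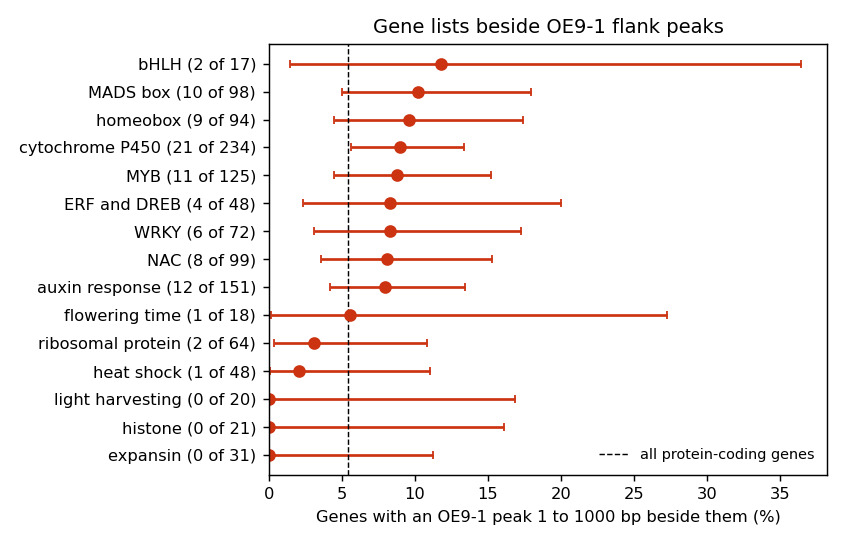
Share of genes with an OE9-1 peak 1 to 1000 bp beside them (horizontal axis, percent) for gene lists of 10 or more genes (vertical axis, with the number of genes beside a peak of all genes in the list); points are shares, bars exact 95% binomial intervals, and the dashed line is the 5.45% of all protein-coding genes. The intervals of 14 of the 15 lists include the dashed line, and that of cytochrome P450 genes begins at 5.64%.

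Individual family members can be given with their peaks. Among MADS box genes, AGL23 had a peak at 971 bp with an FDR of 0.15% and 105 reads, AGL39 at 362 bp with 178 reads, and SHP2, a regulator of fruit opening, at 795 bp with 259 reads. In the MYB family, the peak of MYB79 lay at 336 bp with 194 reads and that of MYB34, a regulator of indole glucosinolates, at 418 bp with 250 reads. WRKY28 had a peak at 716 bp with 241 reads and WRKY75, which acts in phosphate starvation, at 238 bp with 209 reads. Distances within each family thus span much of the 1 kb window. Among stress-related factors, DREB2C had 2 peaks on 1 side, at 119 and 942 bp with 244 and 253 reads, and ERF1 a peak at 991 bp with 207 reads. The heat shock factor gene HSFA1E had a peak at 435 bp with 210 reads.

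In the auxin response list, ARF11, an auxin response factor gene, had a peak at 124 bp with 258 reads, and IAA19, an auxin repressor gene, at 464 bp with 179 reads. The auxin carrier genes PIN4 and PIN8 had peaks at 230 and 959 bp with 202 and 188 reads. In the bHLH list, PIL5, a phytochrome-interacting factor gene, had a peak at 875 bp with 158 reads. Of 18 flowering genes, 1 was beside a flank peak (5.56%, against 5.45% of all genes). It was FT, 55 bp from a peak on chromosome 1 at 24334003 to 24334106, with 320 reads and an FDR of 0.91%. FT encodes the mobile signal that starts flowering. Of the 4 DEK-domain genes, AT5G63550 had a flank peak at 523 bp with 170 reads and an FDR of 4.35%, and DEK3 itself had none.

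Cytochrome P450 genes act in plant secondary metabolism, fatty acids and hormones. The lowest FDR in the family was that of CYP71B36, with a peak at 497 bp and 174 reads (FDR 0.67%). CYP86A4, a fatty acid hydroxylase gene, followed with a peak at 339 bp and 203 reads. CYP89A5 had a peak at 763 bp and 157 reads. Among ribosomal protein genes, RPL12-B had a peak at 323 bp with 531 reads, and SSR16 had 1 on each side, at 339 and 390 bp with 213 reads each.

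Genes beside OE9-1 flank peaks also held peaks of the other lines within their spans, at shares near or below those of all genes. An OE3-1 midpoint lay inside 193 of the 1496 genes (12.9%, 11.2 to 14.7%), where 15.6% of all protein-coding genes had one. An OE17-4 midpoint lay inside 123 (8.22%, 6.88 to 9.73%), with 9.08% over all genes. OE9-1 itself had a midpoint inside 74 of them (4.95%, 3.90 to 6.17%), with 5.0% over all genes. The median length of genes beside flank peaks was 1933.5 bp, against 2078 bp for all protein-coding genes. Longer genes offer more room for midpoints, but the shares were not adjusted for length, and its part in them was not tested.

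Few flank positions recurred between lines. An OE3-1 peak overlapped 6 OE9-1 flank peaks (0.492% of them and 0.113% of the OE3-1 list), and an OE17-4 peak overlapped 3 (0.246% and 0.0876%). Of the other OE9-1 peaks, 1.03% were overlapped by an OE3-1 peak and 0.279% by an OE17-4 peak. Within 1000 bp, 59 flank peaks (4.84%) had an OE3-1 peak and 66 (5.41%) an OE17-4 peak, and for the other OE9-1 peaks these shares were 7.16% and 5.33%. All 9 overlapping partners were themselves flank peaks in their own line. Overlap makes this likely in advance, since the partner midpoint then lies close to a midpoint already in the flank.

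The 9 OE9-1 peaks at shared positions held 151 to 320 reads with a median of 255, and 7 of them held more than 231 reads, the upper quartile of all OE9-1 flank peaks. On chromosome 1, the OE9-1 peak at 24095820 to 24095909 held 320 reads and the OE3-1 peak at 24095814 to 24095941, which contains it, 246 reads, in a gap of 804 bp between AT1G64840 and AT1G64850. On chromosome 3, the OE9-1 peak at 9580911 to 9581084 held 255 reads and the OE17-4 peak at 9580938 to 9581090 98 reads, 884 bp from CYP71B20, with 147 bp in common. These were the longest overlaps with each line. Another OE17-4 overlap, of 69 bp, lay 44 bp from AT3G43670 on chromosome 3, with 292 and 95 reads. The third covered 56 bp between AT1G52440 and AT1G52450, with 151 and 102 reads.

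The other OE3-1 overlaps were 64, 42, 10, 10 and 1 bp long. They lay beside PLDGAMMA1, a phospholipase D gene (232 reads in OE9-1 and 188 in OE3-1), AT4G18680 (241 and 174), TBL9 (200 and 143), CPI1, a gene of sterol synthesis (306 and 193), and RP1 (269 and 208). AT4G11845 and PLDGAMMA1 were the 2 genes beside flank peaks of all 3 lines, at the same gap on chromosome 4. There the OE17-4 peak held 139 reads, 763 bp from the first gene and 257 bp from the second. As sets of genes, 31 stood beside flank peaks of OE9-1 and OE3-1 (2.07% of the OE9-1 genes and 7.91% of the OE3-1 genes), and 18 beside those of OE9-1 and OE17-4 (1.20% and 6.06%).

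By chromosome, OE9-1 flank peaks ran from 47.7 per Mb of flank on chromosome 1 to 59.2 on chromosome 4, with 56.4, 50.7 and 57.6 on chromosomes 2, 3 and 5. Counts were 279, 213, 219, 205 and 304 on chromosomes 1 to 5. Median reads per flank peak were between 182 and 203 on each chromosome.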

How the data were processed

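The members and gene lists were chosen with earlier results of these data known. Each of the 3 ChIP samples has 1 peak list. Per the submitters' processing notes the build is TAIR10, while aligner and peak caller are not given in the labels used here. The lists hold, per the file headers, read counts per peak in total and by strand, the false discovery rate in percent, the normalized difference between strands as a fraction, and a Wilcoxon filter p-value, all deposited by the authors. Empty rows and repeated regions (1, 2 and 2 in OE3-1, OE9-1 and OE17-4) were dropped. Midpoints were set against spans of 27444 protein-coding genes and genes of other types in a RefSeq table (TAIR10.1) whose own coordinates stay unprinted. No genome, strand or exon was used here, so the planned share nearest to a gene start and the motif search were not run and no sequence is shown. Gene names in the lists matched the table for 99.5%, 98.4% and 99.1% of peaks. Named peaks are the 10 with the lowest FDR, the 5 with the most reads, gaps and genes with most flank peaks, overlaps with other lines, and at most 4 genes per list by FDR. Peaks beside AT5G28491, GRP5, AT1G22230, IAA19, PIN4 and PIN8 were named after their values were seen. Each line is 1 library, so no test compares lines peak by peak. Classing and the strand test were tested on simulated data. Python 3.11.15, pandas 2.3.3, numpy 2.4.6 and scipy 1.17.1 were used.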

Additional observations from a re-analysis of the deposited data

How the results depend on the processing

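Of 86 values under an alternative, 64 stayed within the interval or spread of the reported value, or for counts within 1.5 times of it, and 22 moved. The 64 include every alternative of the mean share over lines. Its spread (14.8% ± 15.5, SD, n = 3) is so wide that staying within it says little. A flank of 500 bp, and then of 2 kb (2000 bp), gave a share of OE9-1 peaks of 19.4% and 44.7%, a share within 500 bp of 100% and 43.4%, genes on both sides for 34.9% and 18.9%, a median gap of 1735.5 and 3034.5 bp, and 791 and 2295 genes beside a peak, which follows from the width itself. In the 50% of peaks with the lowest FDR the share was 34.5%, with medians of 208 reads, 88 bp and an FDR of 1.54%, 796 genes and 5 overlapped peaks. A Wilcoxon filter p of at most 0.01 gave a median length of 101.5 bp, unequal strands in 18.3% of flank peaks and 798 genes. The share with unequal strands over the whole list is not given for this filter. Overlap over 50% of the shorter peak left 5 flank peaks overlapped, and edges within 200 bp gave 24. Unadjusted strand p-values called 28.6% of the flank peaks and 25.7% of the whole OE9-1 list. Fewer peaks make fewer genes and overlaps; the other causes were not tested. The mean share over lines ranged from 5.91% to 19.6% when 1 line was left out, and was lowest without OE9-1. The window of chromosome 2, the nearer gene alone (1191 genes) and the wider cytochrome P450 list were chosen after seeing the data. No paired analysis was possible because replicate numbers pair ChIP with input libraries and only ChIP peak lists were analysed here; flank and gene peaks were compared within each line. Peak lists give no library depth, and gene spans give no strand.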
